A study of Mus musculus with 6 samples.

Results

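The genes described here encode the proteins of the mitochondrial ribosome, the Mrpl and Mrps genes. Members were all probe sets, each a group of short probes that reads a transcript, annotated with 1 gene symbol of the Mrpl or Mrps series. Where a gene had several, its brightest by mean log2 signal stood for it. This gave 76 genes, read by 156 of the 45101 probe sets on the array, out of 12518 genes tested. A further 2 genes, *Mrpl30* and *Mrpl53*, were read only by probe sets shared with another symbol and were left out.

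The arrays compared 3 mammary tumors of acinar histology, which arose in *K14-cre*; *ApcCKO/+* mice, and 3 control mammary glands, taken from *cre*-negative mice of matched age. In the tumor mice Cre was driven by the keratin 14 promoter, which is active from the embryo onward in cells that form both layers of the mammary epithelium, and by the study's account each tumor carried the recombined *ApcΔ580* allele and a truncating mutation in the other allele. The control glands had no Cre, and the sources used here do not give their *Apc* genotype; the colony had a mixed C57BL/6, 129/S and FVB background. The labels name biological replicates but do not say that each sample was a separate animal, so the p-values measure the spread between these samples.

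Mitochondria make a few subunits of the respiratory chain and of ATP synthase on their own ribosomes, while every protein of those ribosomes is encoded in the nucleus, made in the cytosol and imported. The large subunit joins amino acids and the small subunit reads the messenger RNA. Some of the proteins have relatives in the bacterial ribosome, and others were added in the mitochondrial lineage.

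Whole tissue was measured, so fewer cells of a type and less RNA per cell cannot be told apart. All arrays had been scaled to the same target. The median signal of all genes tested lay between 547 and 618 in tumors and between 580 and 621 in control glands. The whole-array medians were less level, at 138, 130 and 124 in tumors 1, 2 and 3, against 171, 133 and 162 in control glands 1, 2 and 3. Results with equal array medians are given in the last section. The cell type markers differed widely between the groups. The summed signal of 6 epithelial genes, *Krt8* and *Krt18* among them, was 64500 to 84900 in tumors and 9790 to 22300 in control glands, and all 6 were higher in tumors. The summed signal of 6 white adipocyte genes was 1390 to 11000 in tumors and 117000 to 158000 in control glands, and all 6 were lower. The sum of 4 brown adipocyte genes was 390 to 843 in tumors and 2350 to 30300 in control glands, and 2 of the 4 were lower at the threshold used below. Among them *Ucp1*, the uncoupling protein of brown fat, had signals of 10.5, 12 and 3.4 in tumors, against 15556.6, 3082.0 and 522.9 in control glands. The myoepithelial sum was 20100 to 25800 in tumors and 11300 to 14900 in control glands. The macrophage sum was 4060 to 7630 and 13300 to 24200, and the lymphocyte sum 664 to 1200 and 2030 to 10100. Skeletal muscle genes varied within both groups, with sums of 26420, 1654 and 990 in tumors and 4758, 121483 and 46832 in control glands. The 5 fibroblast genes and the 5 endothelial genes were all lower in tumors, and the 5 genes of mitosis were all higher, with sums of 15000 to 20600 in tumors and 787 to 1510 in control glands. What these differences in cell content contribute to the values below was not tested.

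Most mitochondrial ribosomal protein genes had higher signals in tumors than in control glands, by modest amounts. Of the 76 members, 18 (23.7%) were higher in tumors at an adjusted p under 0.05 in limma, with Benjamini-Hochberg adjustment over all 12518 genes, where 16.3% of all genes tested were higher. None of the 76 was lower, where 16.8% of all genes tested were lower. At an unadjusted p under 0.05 the same fit gave 29 members higher and 0 lower, where 2934 of the 12518 genes were higher and 2696 lower. The log2 fold change, tumor minus control, was above 0 for 71 members (93.4%), where 53.2% of all genes tested were above 0. Its median over members was 0.44, a 1.35-fold difference, where the median of all genes tested was 0.07. The middle 50% of members lay between 0.20 and 0.67, and the fold of tumors over control glands ran from 0.693 to 2.47. A difference of at least 2-fold was reached by 5 of the 18 (6.58% of members, where 10.6% of all genes tested were called higher with at least 2-fold). Leaving out 1 array lowered the count, and the members' share passed that of all genes clearly in only 1 of the 6 fits. It was 17.1% (13 members) without control gland 2, where 11.6% of all genes were higher. It was 14.5% (11 members) without tumor 1, near the 12.7% of all genes. It was 10.5% (8 members) without tumor 3, level with the 10.4% of all genes. It was below the share of all genes in the other 3 fits, with 7.89% (6 members) against 10.6% without tumor 2, 10.5% (8 members) against 12% without control gland 1, and 3.95% (3 members) against 10.4% without control gland 3. The median of the members stayed between 0.37 and 0.51 in these fits.

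**Figure D1:**
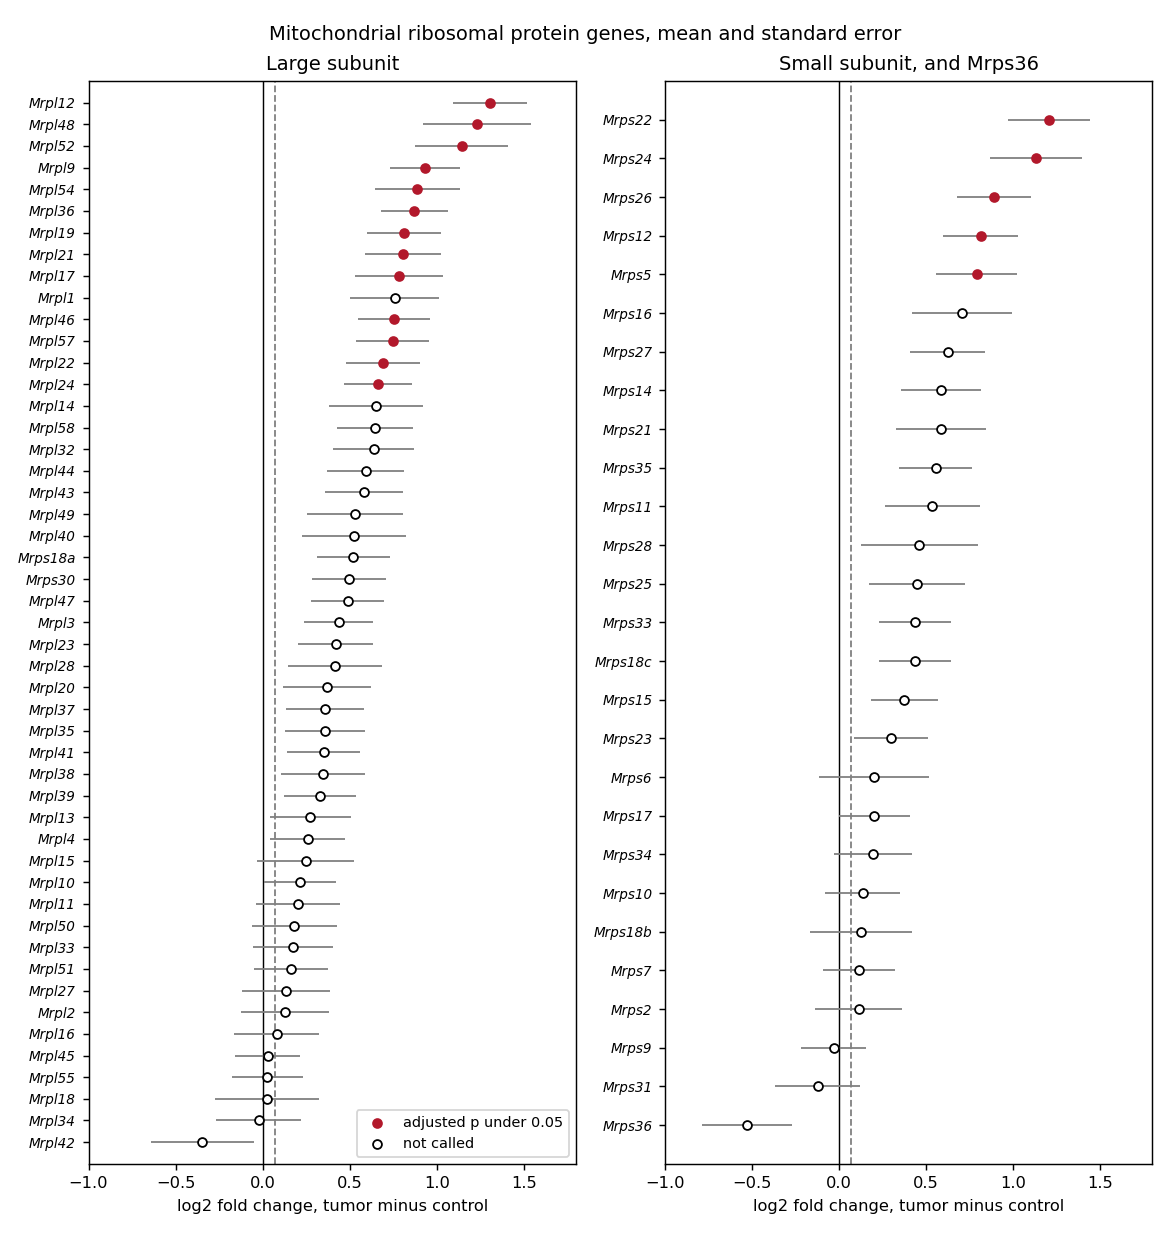
Log2 fold change (tumor minus control, 3 arrays in each group) of all 76 members, with the large subunit on the left and the small subunit and *Mrps36* on the right; bars are standard errors, filled points have an adjusted p under 0.05 and the dashed line is the median of all genes tested, 0.07. All 18 filled points lie to the right, from 0.66 for *Mrpl24* to 1.31 for *Mrpl12*.

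The groups did not overlap for many more members than passed the test. For 38 of the 76 members (50%) the lowest tumor was above the highest control gland, where this held for 27.1% of all genes tested. These were the 18 called members and 20 others. Every tumor lay below every control gland for 1 member, *Mrps36*, where this held for 23.1% of all genes tested. All 76 members reached a signal of at least 100 on every array and 75 at least 200, so no member owed its place in the test to the group where it was higher. Single values ran from 162 for *Mrps27* in a control gland to 6997.1 for *Mrps6* in a control gland. The median standard error of the log2 fold change was 0.23 for members and 0.27 for all genes tested.

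**Figure D2:**
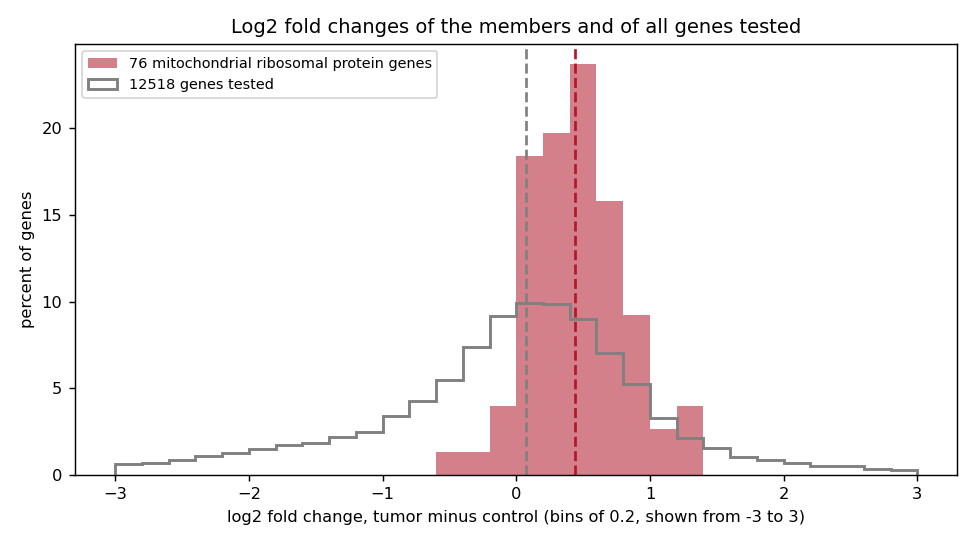
Percent of genes (vertical axis) in bins of log2 fold change (horizontal axis, tumor minus control) for the 76 members, filled, and the 12518 genes tested, outlined; dashed lines are the medians, 0.44 and 0.07. The members form a narrow peak to the right of 0, with 5 members below 0 and 5 at 1 or above, while genes of the whole array spread far to both sides.

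The members did not move by the same step on every array. Set against the mean of the control glands, the median member lay at 0.35, 0.59 and 0.40 on the log2 scale in tumors 1, 2 and 3, and at -0.02, 0.19 and -0.16 in control glands 1, 2 and 3. Tumor 2 was the highest tumor for 46 of the 76 members and tumor 3 for 19, while the lowest tumor was tumor 1 for 38 and tumor 3 for 29. Control gland 2 was the highest control gland for 51 members, and control gland 3 the lowest for 52. The distance between the closest arrays of the groups, tumor 1 and control gland 2, was smaller than that between control glands 2 and 3. Control gland 2 was also the array with the highest muscle sum, 121483, and the lowest epithelial sum, 9788, and the part of these cell types in its higher member signals was not tested.

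**Figure D3:**
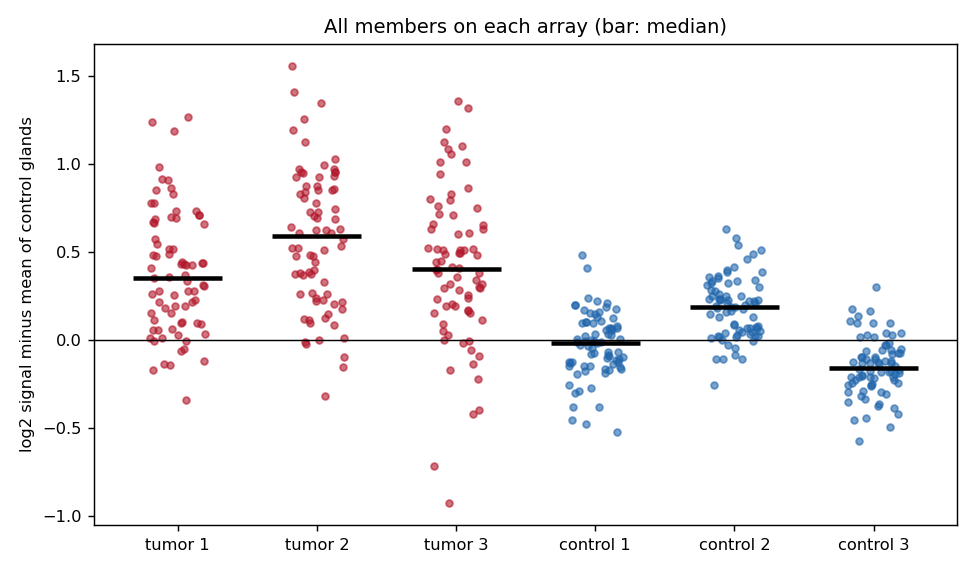
Log2 signal of each of the 76 members minus its mean over the control glands (vertical axis) on each of the 6 arrays; each point is 1 member and the bar is the median. The tumor medians, 0.35 to 0.59, lie above the control medians, -0.16 to 0.19, while the clouds of points overlap.

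In the large subunit, 13 of 49 members (26.5%, where 16.3% of all genes tested were higher) were higher in tumors and 0 were lower, with a median log2 fold change of 0.44. *Mrpl12*, a protein of the stalk that calls translation factors to the ribosome and, in human cells, a partner of the mitochondrial RNA polymerase, had signals of 2894.2, 3613.6 and 2678.0 in tumors, against 1311.6, 1266.7 and 1117.0 in control glands. The groups lay far apart, and the log2 fold change of 1.31 ± 0.21 (SE) had an adjusted p of 0.00415 in limma. *Mrpl48*, a protein added in the mitochondrial lineage, had 1721.5, 1728.7 and 1882.7 in tumors, against 527.4, 1171.1 and 701.8 in control glands. Its tumors were nearly alike and its control glands spread more, and its log2 fold change was 1.23 ± 0.31 (limma, adjusted p = 0.0211). *Mrpl52*, also without a bacterial relative, had 3446.9, 4167.2 and 4003.5 in tumors, against 2444.0, 1621.2 and 1349.1 in control glands, a log2 fold change of 1.14 ± 0.27 (limma, adjusted p = 0.0165). All 4 of its tested probe sets had a positive log2 fold change. In a limma fit adjusted over the 22492 named probe sets kept, 3 of them were called higher. With 1 array left out at a time, *Mrpl12* was called in every fit, *Mrpl52* was not called without tumor 2 or control gland 3 (limma, adjusted p = 0.0537 and 0.0624), and *Mrpl48* was not called without tumor 2, tumor 3, control gland 1 or control gland 3 (0.0577 to 0.0701).

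*Mrpl9*, whose bacterial relative is a long protein on the surface of the large subunit, was with *Mrpl36* and *Mrpl24* among the 3 called members with the smallest standard errors. Its signals were 2260.1, 2575.2 and 2731.0 in tumors, against 1186.9, 1327.1 and 1448.8 in control glands, a log2 fold change of 0.93 ± 0.20 (limma, adjusted p = 0.0122). *Mrpl54* had 635.6, 735.1 and 522.3 in tumors, against 309.0, 426.1 and 291.9 in control glands, and a log2 fold change of 0.89. *Mrpl36*, the relative of the smallest protein of the bacterial large subunit, had 1349.5, 1548.9 and 1285.9 in tumors, against 754.9, 757.1 and 769.0 in control glands. Its control glands differed by less than any of the tumors did from each other, and its log2 fold change of 0.87 had a standard error of 0.19. *Mrpl24*, whose bacterial relative starts the folding of the large ribosomal RNA, had the smallest change among the called members, with 4378.1, 4619.2 and 5325.9 in tumors, against 3117.3, 3051.8 and 2847.8 in control glands, and a log2 fold change of 0.66. The other called members of the large subunit were *Mrpl19* and *Mrpl21* at 0.81, *Mrpl17* at 0.78, *Mrpl46* at 0.75, *Mrpl57* at 0.75 and *Mrpl22* at 0.69 on the log2 scale. Of these, *Mrpl22* was not called whichever of the 6 arrays was left out, *Mrpl17*, *Mrpl46* and *Mrpl57* were called only without control gland 2, and *Mrpl19* and *Mrpl21* were called in 2 of the 6 fits. *Mrpl9* was called whichever array was left out. *Mrpl36* was not called without control gland 3 (limma, adjusted p = 0.0519), *Mrpl54* without tumor 1 or 2 or control gland 1 or 3 (0.0649 to 0.105), and *Mrpl24* without any one of the 6 arrays (0.0533 to 0.125).

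In the small subunit, 5 of 26 members were higher in tumors (19.2%, near the 16.3% of all genes tested) and 0 were lower, with a median log2 fold change of 0.44, as in the large subunit. *Mrps22*, a protein without a bacterial relative that is mutated in a human mitochondrial disease, had signals of 2095.2, 2316.7 and 1678.7 in tumors, against 872.4, 1045.5 and 729.8 in control glands. All tumors lay above all control glands, and the log2 fold change was 1.20 ± 0.24 (limma, adjusted p = 0.00833). *Mrps24*, the relative of a bacterial protein at the entrance of the messenger RNA channel, had 1680.8, 2629.8 and 2656.7 in tumors, against 933.8, 1261.4 and 946.2 in control glands, and a log2 fold change of 1.13 ± 0.26 (limma, adjusted p = 0.0162). Tumor 1 was the low one here, and all probe sets of *Mrps24* may cross-hybridize. *Mrps26*, added in the mitochondrial lineage, had 1486.9, 1516.9 and 1838.1 in tumors, against 907.5, 961.9 and 747.5 in control glands, and a log2 fold change of 0.89. *Mrps22* was called whichever array was left out, *Mrps26* was not called without tumor 3 or control gland 3 (limma, adjusted p = 0.0526 and 0.0753), and *Mrps24* was not called without tumor 2 or 3 or control gland 1 or 3 (0.0515 to 0.0613).

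*Mrps12* belongs to the decoding center, where the codon is read, and its bacterial relative is the site of streptomycin resistance. Its signals were 1545.2, 1420.8 and 2000.4 in tumors, against 927.4, 876.9 and 996.1 in control glands, a log2 fold change of 0.81 (limma, adjusted p = 0.0259). It was not called without tumor 3 or any one control gland, with an adjusted p of up to 0.0725 in limma, and its single probe set may cross-hybridize. *Mrps5*, whose bacterial relative also acts in the accuracy of decoding, had 573.5, 835.8 and 872.1 in tumors, against 453.6, 440.9 and 404.5 in control glands, and a log2 fold change of 0.79. The call for *Mrps5* rested on the probe set used: its 4 tested probe sets ran from -0.52 to 0.79 and the mean over them was 0.20, which was not called. It was not called either without tumor 2 or 3 or any one control gland (limma, adjusted p = 0.0776 to 0.118).

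**Figure D4:**
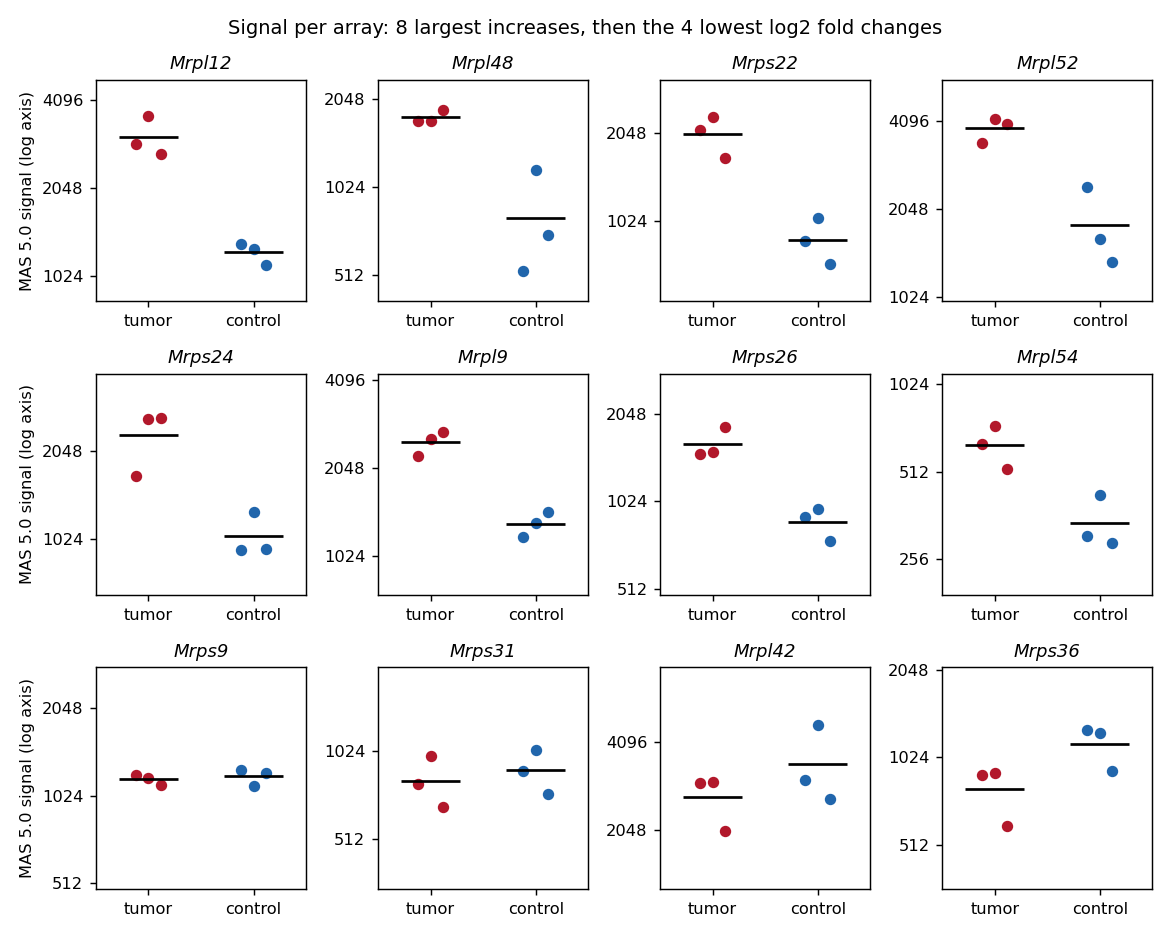
MAS 5.0 signal (log axis) of the 8 members with the largest increase and the 4 with the lowest log2 fold change, with 1 point per array, tumors left and control glands right; the line is the mean of the 3 signals. In the upper panels all 3 tumors lie above all 3 control glands, and in *Mrps36* all 3 lie below.

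A small set of members did not share the direction. *Mrps36* had signals of 892.7, 904.5 and 594.4 in tumors, against 1270.3, 1236.6 and 918.9 in control glands. Every tumor was below every control gland, but the log2 fold change of -0.53 ± 0.26 did not pass the test (limma, adjusted p = 0.154). *Mrps36* bears a ribosomal name but is known as a subunit of the oxoglutarate dehydrogenase complex of the citric acid cycle, and it was counted in neither subunit. *Mrpl42* had 2953.2, 2995.5 and 2026.5 in tumors, against 3030.5, 4670.7 and 2602.9 in control glands, and a log2 fold change of -0.35 ± 0.29 (limma, adjusted p = 0.40). Its groups overlapped, with control gland 2 far above the rest.

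*Mrps31*, *Mrps9* and *Mrpl34* lay at -0.12, -0.03 and -0.02 on the log2 scale, within their standard errors of 0. *Mrpl18*, whose bacterial relative binds the small ribosomal RNA of the large subunit, *Mrpl55* and *Mrpl45* each lay at 0.03. *Mrpl45*, which in mammals anchors the large subunit at the inner membrane near the exit of the new chain, had 959.8, 905.7 and 955.7 in tumors, against 941.6, 936.2 and 888.2 in control glands. With a standard error of 0.19, the smallest of all members, its groups could not be told apart by these arrays. Members with some of the highest signals also changed little: *Mrpl51* had 4912.3, 6000.3 and 6386.9 in tumors, against 5588.3, 5333.5 and 4515.1 in control glands, and *Mrps6* had 4435.9, 5552.7 and 6921.0 in tumors, against 3457.8, 6997.1 and 4628.6 in control glands. *Mrpl39* was at 0.33 on the log2 scale. Among the lowest signals, *Mrps27* had 265.9, 332.9 and 264.5 in tumors, against 162.0, 190.3 and 207.6 in control glands, and *Mrpl1* had 502.5, 629.0 and 481.4 in tumors, against 242.6, 402.7 and 321.7 in control glands. Both had all tumors above all control glands and missed the threshold, at adjusted p = 0.0598 and 0.0568 in limma.

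The genes of the *Mrps18* family, 3 copies of 1 bacterial protein of which *Mrps18a* belongs to the large subunit, differed in their values. *Mrps18a* lay at 0.52 ± 0.21 and *Mrps18c* at 0.43 ± 0.21 on the log2 scale, both with all tumors above all control glands, while *Mrps18b* lay at 0.13 ± 0.29 with overlapping groups. None of the 3 was called (limma, adjusted p = 0.0913, 0.145 and 0.766), and the difference between them was not tested. *Mrps30*, also found in the large subunit despite its name, had 931.1, 1299.2 and 1084.0 in tumors, against 724.1, 816.3 and 791.5 in control glands, a log2 fold change of 0.50 that was not called. *Mrpl58*, a hydrolase that frees peptides from stalled ribosomes, had 1914.7, 2641.4 and 1912.6 in tumors, against 1289.9, 1427.1 and 1377.4 in control glands, and missed the threshold at adjusted p = 0.0573 in limma.

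The members were also grouped by descent, which the rule did not use. Of 46 members with a bacterial relative, 11 were higher (23.9%, where 16.3% of all genes tested were higher) and 0 lower in tumors, and the median log2 fold change was 0.43. Of 28 members without one, 7 were higher (25%) and 0 lower, and the median was 0.51. The groups did not overlap, with tumors above, for 22 of the 46 (47.8%) and for 16 of the 28 (57.1%), where this held for 27.1% of all genes tested. *Mrpl55* and *Mrps36* were put in neither group.

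Several members were read by more than 1 probe set. Of the 33 with several tested probe sets, all had a positive log2 fold change in 21, and at least 1 was negative in 12. Calls of single probe sets came from a limma fit adjusted over the 22492 named probe sets kept, and not over genes. No member had probe sets called in opposite directions. The probe sets of 1 gene lay over 1 apart on the log2 scale in *Mrpl48* (-0.40 to 1.23), *Mrpl13* (-0.78 to 0.64), *Mrps5* and *Mrpl3* (-0.44 to 0.59). *Mrpl48* was called on the probe set used and lay at 0.50 as the mean over its 3 tested probe sets, which was not called. Of the 18 called members, 8 had several tested probe sets, and 3 of these had another probe set called higher. *Mrpl19*, *Mrpl21* and *Mrpl57* were not called as the mean over their probe sets. The choice also worked the other way in *Mrpl28*: the probe set used lay at 0.42 and was not called, while its other 2 tested probe sets lay at 0.92 and 1.24 and were both called higher.

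Promoter sequence was looked at because the members moved largely in 1 direction. RefSeq promoters (build GRCm38.p6, 250 bases before to 50 after a start) matched 67 of the 76 members by gene identifier. They gave 73 windows, set beside 32851 windows of all genes. The stretches below run from 150 bases before to 30 after the start of 5 of the called members, chosen to show 1 with no match and 4 that hold a motif searched. Capitals mark the match. The last stretch lies between *Mrpl46* and *Mrps11*, which are transcribed away from each other, and ends 30 bases inside each gene.
Mrpl12, chr11:120484487-120484666, plus strand: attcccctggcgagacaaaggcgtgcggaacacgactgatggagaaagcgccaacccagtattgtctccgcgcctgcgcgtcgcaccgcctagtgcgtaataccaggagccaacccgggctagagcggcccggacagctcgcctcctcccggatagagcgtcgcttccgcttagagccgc
Mrps22, chr9:98601650-98601829, minus strand: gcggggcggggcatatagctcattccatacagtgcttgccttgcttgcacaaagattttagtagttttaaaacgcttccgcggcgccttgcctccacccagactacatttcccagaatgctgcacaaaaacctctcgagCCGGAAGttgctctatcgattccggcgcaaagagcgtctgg
Mrpl52, chr14:54426759-54426938, plus strand: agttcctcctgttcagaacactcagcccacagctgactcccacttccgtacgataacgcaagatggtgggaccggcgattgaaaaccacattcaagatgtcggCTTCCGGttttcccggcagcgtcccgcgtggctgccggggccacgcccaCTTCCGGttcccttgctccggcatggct
Mrpl9, chr3:94443186-94443365, plus strand: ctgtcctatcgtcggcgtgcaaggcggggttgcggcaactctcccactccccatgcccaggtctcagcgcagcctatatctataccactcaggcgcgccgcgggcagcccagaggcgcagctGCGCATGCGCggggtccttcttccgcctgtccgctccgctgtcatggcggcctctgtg
Mrpl36, chr13:73330859-73331038, plus strand: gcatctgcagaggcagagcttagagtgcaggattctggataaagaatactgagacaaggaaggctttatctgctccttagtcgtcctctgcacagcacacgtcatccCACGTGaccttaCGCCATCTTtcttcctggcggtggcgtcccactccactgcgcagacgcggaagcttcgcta
Mrpl46-Mrps11, chr7:78783059-78783160, plus strand: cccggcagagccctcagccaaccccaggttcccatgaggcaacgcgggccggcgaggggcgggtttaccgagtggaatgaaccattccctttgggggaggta
In *Mrps22* the capitals are CCGGAAG, a sequence bound by ETS factors such as Gabpa, 11 bases before the start. *Mrpl52* holds it on the other strand at 2 places, 47 bases before and at base 3 after the start. In *Mrpl9* the capitals cover GCATGCGC, the core bound by Nrf1, read on both strands in overlapping matches. *Mrpl36* holds the E-box CACGTG, which Myc can bind, and AAGATGGCG on the other strand, a sequence bound by Yy1. No motif searched was found in the *Mrpl12* stretch or between *Mrpl46* and *Mrps11*.

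Each motif was searched on both strands of all windows. These covered 27025 genes and were not limited to genes tested on the arrays, and shares among tested genes alone were not computed. CCGGAAG was found in 25 of the 73 member windows (34.2%) and in 8.86% of all windows. GCATGCGC was in 8 member windows (11.0%) and in 2.71% of all windows, and AAGATGGCG likewise in 8 (11.0%) and in 1.4% of all windows. CACGTG was in 7 member windows (9.59%) and in 7.15% of all windows, and TATAAA, the TATA box, in 5 (6.85%) and in 13.6% of all windows. Counted by gene and not by window, 25 of the 67 members held CCGGAAG, 8 GCATGCGC, 8 AAGATGGCG, 5 CACGTG and 5 TATAAA. Of the 16 called members with a window, 9 held CCGGAAG, 3 GCATGCGC, 2 AAGATGGCG, 1 CACGTG and 3 TATAAA. Whether called members differed from the others was not tested. A match is a description of these letters, and binding was not measured.

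Many members shared a promoter region with a gene on the opposite strand. Of the 67 members with a window, 22 (32.8%) had a neighbor transcribed away from them whose window overlapped theirs. This held for 10.9% of all genes with a window, tested on the arrays or not. In the pairs with a member the starts lay 8 to 332 bases apart. *Mrpl46* and *Mrps11* were each other's neighbor, with starts 42 bases apart, and had log2 fold changes of 0.75 ± 0.21, called, and 0.54 ± 0.27, not called. Of the 17 tested neighbors that were not members themselves, 16 had a positive log2 fold change (53.2% of all genes tested had), 3 were higher (16.3% of all genes tested were) and 0 were lower. The only pair with both genes higher was *Mrpl57* at 0.75 and *Ska3*, a protein that ties chromosomes to the spindle, at 2.17. *Mrps12* stood beside *Sars2*, the mitochondrial seryl-tRNA synthetase, which lay at 0.21 ± 0.42 and was not called.

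Other genes of mitochondrial translation were set beside the members, from lists of the pathway. For all genes tested, 16.3% were higher and 16.8% lower. Of 4 mitoribosomal proteins with other names, 1 was higher (25%) and 0 lower. In all 4 every tumor lay above every control gland, where this held for 27.1% of all genes tested. *Chchd1*, a small subunit protein, had 3598.7, 5171.6 and 3534.1 in tumors, against 1870.2, 2222.1 and 1621.7 in control glands, a log2 fold change of 1.10 ± 0.25 (limma, adjusted p = 0.0140). *Gadd45gip1*, *Dap3* (a small subunit protein that binds GTP) and *Ptcd3* lay at 0.82, 0.65 and 0.35 and were not called. Among 17 translation factors, 2 were higher (11.8%, below the 16.3% of all genes tested) and 0 lower, with a median of 0.21. These were *Mrrf*, which recycles ribosomes, at 0.83, and *Tufm*, the factor that delivers transfer RNA, at 0.77. The *Tufm* value came from a probe set that may cross-hybridize, and it lay at -0.06 without such probe sets. *Chchd1* was not called without control gland 3 (limma, adjusted p = 0.0576), *Mrrf* without tumor 2 or control gland 1 or 3 (0.0518 to 0.0656), and *Tufm* without tumor 1 or any one control gland (0.0593 to 0.0824).

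Of 25 tested genes of mitoribosome assembly, 5 were higher (20%, where 16.3% of all genes tested were) and 0 lower, with a median of 0.38. *Noa1*, a GTPase of small subunit assembly, had 1602.2, 1073.1 and 1308.0 in tumors, against 600.4, 542.8 and 688.9 in control glands, and a log2 fold change of 1.11. *Mettl15*, which methylates the ribosomal RNA of the small subunit, was at 1.09 and lost its call, at 0.46, once cross-hybridizing probe sets were left out. Of 14 tested mitochondrial aminoacyl-tRNA synthetases, 4 were higher (28.6%) and 0 lower, with a median of 0.25. *Yars2* at 0.85 and *Nars2* at 0.76 led them. *Yars2* lay at 0.63 and was not called without cross-hybridizing probe sets (limma, adjusted p = 0.113). Of 10 genes of mitochondrial transcription and replication, 2 were higher (20%) and 0 lower. These were *Tfam*, which packs mitochondrial DNA and helps start its transcription, at 0.90 and *Top1mt* at 0.77. *Tfam* lay at 0.06 as the mean over its probe sets. Of 19 genes of protein import and chaperones, 4 were higher (21.1%) and 0 lower, with a median of 0.21. *Timm8a1* at 1.37 and *Timm50* at 0.85 led them. *Noa1*, *Mettl15* and *Timm8a1* were called whichever array was left out. *Tfam* was not called without control gland 2 or 3 (limma, adjusted p = 0.0502 and 0.0519), and *Yars2*, *Nars2*, *Top1mt* and *Timm50* were each not called without 1 of 4 or 5 of the arrays (0.0541 to 0.116).

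The products of the mitoribosome work beside nuclear-encoded partners, and the list of cytochrome c oxidase and ATP synthase genes had a median nearer that of all genes. Of its 32 genes, 3 were higher (9.38%, below the 16.3% of all genes tested) and 1 lower, with a median log2 fold change of 0.12. *Atpif1*, the inhibitor of ATP synthase, was higher at 1.29 and *Atp5g1*, a gene of its membrane ring, at 1.16. *Cox8a*, a small subunit of cytochrome c oxidase, had 3094.4, 2944.9 and 3116.9 in tumors, against 5345.6, 6827.3 and 4220.5 in control glands, a log2 fold change of -0.81. The cytosolic ribosomal proteins had a higher median than the members, 0.65 over 44 genes, of which 9 were higher (20.5%) and 0 lower. *Rps27l* was at 1.67 and *Rpl14* at 1.28. *Atpif1* and *Rps27l* were called whichever array was left out, *Rpl14* was not called without control gland 3 (limma, adjusted p = 0.0521), and *Atp5g1* and *Cox8a* were each called in only 1 of the 6 fits with an array left out. With equal array medians *Cox8a* lay at -0.60 and was not called (limma, adjusted p = 0.13), and *Atpif1* was not called at 0.65 with its probe sets averaged (0.0508). These lists were not tested against each other.

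Regulators of nuclear genes for mitochondria went both ways, with 2 of 10 higher (20%) and 2 lower, where 16.3% and 16.8% of all genes tested were. *Myc*, a growth factor-induced activator of ribosomal genes, had 3050.3, 1937.2 and 2218.5 in tumors, against 1000.8, 370.3 and 1300.3 in control glands, a log2 fold change of 1.59 ± 0.47 (limma, adjusted p = 0.0364). *Yy1* had 6167.0, 6169.0 and 6893.2 in tumors, against 3342.8, 3556.8 and 3548.6 in control glands, and was at 0.88, while the mean over its probe sets was 0.18 and was not called. The coactivators of mitochondrial biogenesis in fat and muscle were lower: *Ppargc1a* had 199.2, 209.0 and 199.8 in tumors, against 408.5, 413.7 and 290.1 in control glands, and *Ppargc1b* had 528.8, 274.8 and 794.4 in tumors, against 1505.6, 1361.9 and 1026.2 in control glands. Their log2 fold changes were -0.85 and -1.40. The adipocyte genes given above were lower in tumors too, with sums of 9423, 10961 and 1392 in tumors 1, 2 and 3. Among the tumors *Ppargc1b* was highest in tumor 3, where that sum was lowest, and *Ppargc1a* was nearly level. Among the control glands both were lowest in control gland 3, which had the lowest adipocyte sum, 117102. The part of fat content in the values was not tested. *Nrf1* at 0.14, *Gabpa* at 0.19, *Gabpb1* at 0.09, *Esrra* at 0.08, *Pprc1* at 0.27 and *Mycn* at 0.52 were not called. *Mycn* was called in 2 of the 15 alternative fits that tested it, and its values in them ran from -1.57 to 1.30. *Yy1* was called whichever array was left out. *Myc* was not called without any one tumor or without control gland 1 (limma, adjusted p = 0.0551 to 0.095), *Ppargc1a* was called only without control gland 3 and *Ppargc1b* only without tumor 3 among the 6 such fits. *Ppargc1a* lay at -0.64 and was not called with equal array medians (0.0879).

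**Figure D5:**
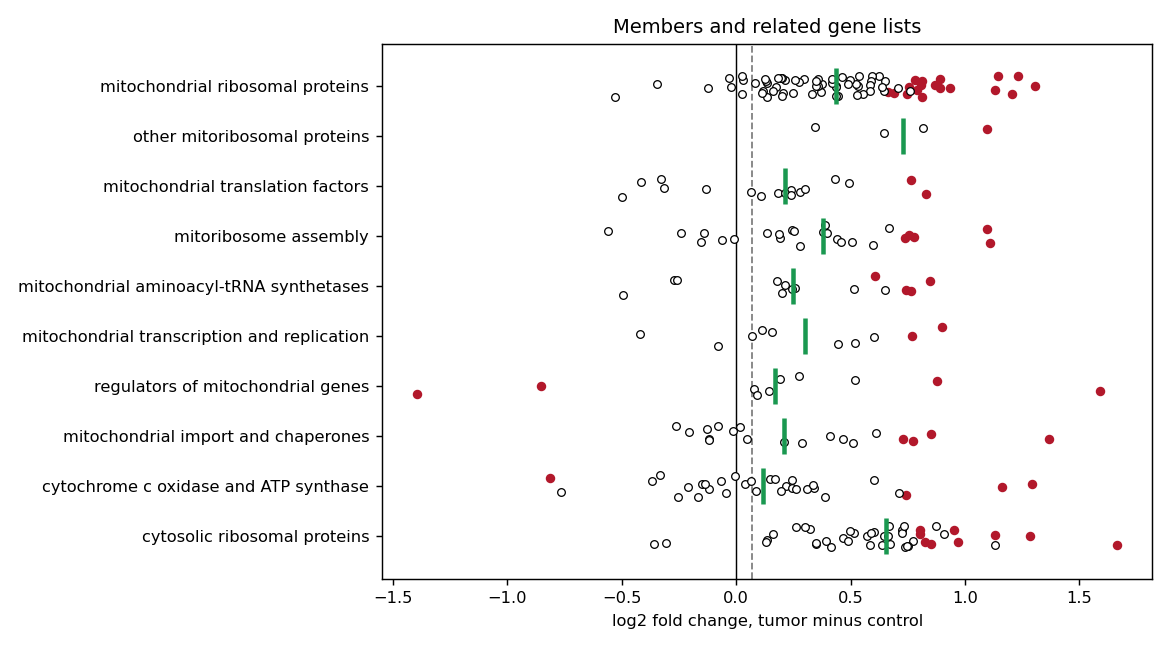
Log2 fold change (horizontal axis, tumor minus control) of each gene in the members and in 9 related lists; filled points have an adjusted p under 0.05, green bars are list medians and the dashed line is the median of all genes tested. No filled point of the members lies left of 0, and the regulators have filled points on both sides, from -1.40 for *Ppargc1b* to 1.59 for *Myc*.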

How the data were processed

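The data were 6 arrays, 3 of mammary tumors and 3 of control mammary glands, 1 per sample. The deposited intensity values were made by the authors with the MAS 5.0 algorithm, which brought each array to a target signal of 500. Of 45101 probe sets, 64 controls were left out, 34945 carried 1 gene symbol in the platform annotation, 932 several and 9160 none. Before log2 was taken, signals under 50 were raised to 50. A probe set was kept where 3 or more arrays reached 100, which left 22492 named probe sets, and the brightest of each gene by mean log2 value gave 12518 genes. The groups were compared in limma 3.58.1 (lmFit, eBayes; R 4.3.3) with 2-sided tests, adjusted by Benjamini-Hochberg over all genes, at a threshold of 0.05. An exact permutation test of 3 against 3 samples cannot go below p = 0.1. The number of arrays limits the precision.

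The members, the lists and the rule for genes named were chosen with earlier results of these data known. The rule names the 8 highest and the 8 lowest log2 fold changes among members, the 3 called members with the smallest standard errors, the 3 with the highest, the lowest and the least changed signals, the *Mrps18* genes and *Mrps30*, members whose probe sets disagree, all other mitoribosomal proteins and regulators, and up to 2 called genes in each direction of each related list. *Mrps12*, *Mrpl58*, *Mrpl28*, the remaining called members and the promoter neighbors were added after their values were seen. Subunit and descent were assigned from general knowledge. As alternatives, the floor was set at 16 or 100, 50 was added to each signal, arrays were quantile normalized or given equal medians, the filter was dropped or set at 200, a variance trend or a replicate block was fitted, cross-hybridizing probe sets were left out, a gene's probe sets were averaged, each array was left out, a 2-fold limit was set, and the methods' t-test (a statistic of at least 4.5 and a 2-fold ratio) was run.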

Additional observations from a re-analysis of the deposited data

How the results depend on the processing

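No alternative called any member lower. The count of members higher, 18, was 17 to 21 with other floors, an added constant, other filters, a variance trend or quantile normalization. It was 17 with cross-hybridizing probe sets left out and 15 with probe sets averaged. These counts were 19.7% to 27.6% of the members tested, where 9.36% to 19.4% of all genes were higher. Equal array medians gave 25 members higher (32.9%), where 23.8% of all genes were higher. Equal medians moved the median of all genes to 0.29 and that of the members to 0.65, a difference of 0.36, and gave 2977 genes higher and 1724 lower, against 2045 and 2098. A 2-fold limit left 5 members, the methods' t-test 4 at its threshold (5.47% of all genes) and 0 after Benjamini-Hochberg adjustment, where 67 of all genes were higher and 73 lower. Leaving out 1 array gave 3 to 13 members higher, with 2 to 10 of the 49 large and 1 to 5 of the 26 small subunit members. In these fits 10.4% to 12.7% of all genes were higher. No tumor lay below any control gland for 39 to 57 members, where this held for 30.1% to 32.9% of all genes.

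Of the 18 calls, 3 (*Mrpl12*, *Mrps22* and *Mrpl9*) stood in all 17 refits, and 61 of 76 members had a positive change in every one. The small subunit had 3 calls among 24 members without cross-hybridizing probe sets, where 16.1% of all genes were higher. *Mrps12* and *Mrps24* had no other probe set and were not tested there. The labels state no pairing of same-numbered tumors and control glands. Deviations of these from their group means correlated at -0.222, 0.0206 and 0.0379 over genes, and those of differently numbered ones at -0.161 to 0.134. Deviations from the mean of so few samples depend on each other, so these values cannot decide whether samples were paired. With the replicate number as a block, 12 members were higher (15.8%, where 13% of all genes were), all among the 18, and 8 of the large subunit.

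Of 1319 values of 78 named genes, 31 changed sign, and the cause was not tested. *Mrpl34* turned to 0.015 with quantile normalization, 0.19 with equal medians and 0.20 with probe sets averaged. *Mrps9* turned to 0.18 with equal medians and 0.069 with probe sets averaged, and *Mrps31* to 0.091 with equal medians. Without cross-hybridizing probe sets *Mrps6* lay at -0.17 and *Tufm* at -0.056. With probe sets averaged *Mrpl51* lay at -0.17, *Mycn* at -0.53 and *Esrra* at -0.11. Leaving out 1 array at a time gave -0.17 to 0.16 for *Mrpl34*, -0.085 to 0.0035 for *Mrps9*, -0.27 to 0.016 for *Mrps31*, -0.038 to 0.47 for *Mrps6*, -0.18 to 0.25 for *Mrpl18*, -0.069 to 0.14 for *Mrpl55* and -0.067 to 0.42 for *Mrps18b*. Among regulators it gave -1.57 to 1.30 for *Mycn*, -0.17 to 0.42 for *Esrra*, -0.058 to 0.32 for *Nrf1* and -0.051 to 0.27 for *Gabpb1*.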
